A study of Mus musculus with 8 samples.

Results

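The locus described here is the neighbourhood of Junb on mouse chromosome 8, taken as the interval from 87400000 to 87530000 of the mm9 genome build, 130 kb long. Its members are the peaks of 6 lists that overlap this interval. They made up 8 distinct sites, of 5343 distinct sites with an exact position in the whole series. The interval was selected on the peak positions themselves, and for a site listed there before cytokine was added, so the number, position and listing of the sites are given as a description without a test.

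The lists came from chromatin immunoprecipitation followed by sequencing (ChIP-seq) of STAT3 phosphorylated on tyrosine 705. The cells were mouse embryonic fibroblasts of STAT3-/- genotype that re-expressed STAT3α or STAT3β, with 1 peak list for each spliceform after 0, 30 and 180 min of human oncostatin M at 10 ng/mL. All groups shared induction of the spliceform with 1 nM 4-hydroxytamoxifen for at least 48 h, puromycin selection of the construct and 16 h without serum before the cytokine. Each spliceform was studied in 1 cell line, each list came from merged reads, and 2 input DNA samples had no list used here. Cell line and spliceform therefore cannot be told apart. The lists give positions only. Peak strength and sequencing depth are therefore unknown, and a site missing from a list was not shown to be unbound. For the same reason, no value below has an error across samples.

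Junb encodes a subunit of AP-1, a transcription factor made of Jun and Fos family proteins that bind DNA as dimers through a basic leucine zipper. It is an immediate early gene, transcribed within minutes of serum, growth factors or cytokines, and a known target of STAT3 downstream of the interleukin-6 family, to which oncostatin M belongs. STAT3 is phosphorylated by JAK kinases at the activated receptor, forms dimers, enters the nucleus and binds palindromic sites with the letters TTCNNNGAA. STAT3α carries a C-terminal transactivation domain that STAT3β lacks.

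The 8 sites are numbered in order of position. Site 1 lay at 87417614 to 87418013, site 2 at 87471037 to 87471436, site 3 at 87483649 to 87484048 and site 4 at 87489508 to 87489907. Site 5 lay at 87500257 to 87500656, site 6 at 87502518 to 87502917, site 7 at 87509436 to 87509835 and site 8 at 87513661 to 87514060. All 8 were 400 bp wide, which was also the median width in the series, and none overlapped another in part. The sites spanned 96.4 kb. The closest sites outside the interval were 153 kb below it and 375 kb above it on chromosome 8, so its edges cut through no cluster. The one below was in both 30 min lists and the one above in the STAT3α 30 min list alone.

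Junb itself was placed near 87.501 to 87.503 Mb of mm9, a position rounded to 1 kb that was given with the interval and not read from an annotation. Sites 5 and 6 were the sites next to the gene. Site 5 ended 344 bp below the lower bound of this position, and site 6 lay within the position, with its centre 283 bp below the upper bound. These distances are smaller than the rounding and show only that both sites were within about 1 kb of the gene. In RefSeq, Junb is 1840 bp long and on the minus strand of GRCm38.p6, with Prdx2, which encodes a peroxiredoxin, on its lower-coordinate side and Hook2, which encodes a linker of vesicles to microtubules, on its higher-coordinate side. If mm9 has the same orientation, which was not checked, site 6 is at the end where transcription starts and site 5 at the end where it stops. The centres of sites 5 and 6 were 2.26 kb apart, more than the length of the gene.

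The promoter of Junb is shown because both sites lay within about 1 kb of the gene and, if the orientation holds, site 6 lay at the end where transcription starts. The sequence runs from 250 bases before to 50 bases after the RefSeq start on the minus strand of GRCm38.p6 (chr8:84978699-84978998), a build in which the peak coordinates are not valid, so whether site 6 covers it was not determined. Capitals mark CCAAT and TATAAA, which were added to the search after the sequence had been seen.
Junb promoter: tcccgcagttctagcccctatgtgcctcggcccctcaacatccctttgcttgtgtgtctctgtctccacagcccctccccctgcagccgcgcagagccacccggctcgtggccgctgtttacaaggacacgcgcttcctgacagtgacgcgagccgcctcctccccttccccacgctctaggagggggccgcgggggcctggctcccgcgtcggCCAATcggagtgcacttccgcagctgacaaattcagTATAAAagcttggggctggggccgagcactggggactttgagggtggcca
The motif TTCNNNGAA, searched on both strands, was not found in these 300 bases, and neither were the same palindrome with 1 more base between its arms, the AP-1 letters TGANTCA or the cyclic AMP response element TGACGTCA. Only exact matches were searched, so a binding site that departs from these letters at a fixed base would have been missed. Of 32851 RefSeq promoters of this length, 8.30% held TTCNNNGAA, 6.95% the wider palindrome, 7.81% TGANTCA and 1.79% TGACGTCA. CCAAT began 36 bases before the annotated start and was found in 37.4% of all promoters, and TATAAA began at the annotated start itself and was found in 13.6%. The promoter was GC-rich, at 65.3% G and C against a median of 52.7% over all promoters, and 17.7% of promoters were at or above its value. Sequence of the 8 sites themselves was not analysed here.

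Other AP-1 genes and known STAT3 targets were searched in the same way. Of 13 AP-1 genes listed (Jun, Junb, Jund, Fos, Fosb, Fosl1, Fosl2, Atf3, Batf, Batf3, Jdp2, Maff and Mafk), 12 had a promoter in the table, all but Fosl1. TTCNNNGAA was in a promoter of 2 of these 12, Batf3 and Maff, against 9.55% of all 27025 genes with a promoter there. Of 12 STAT3 feedback and target genes (Socs3, Socs1, Cish, Bcl3, Bcl6, Cebpb, Cebpd, Myc, Stat3, Icam1, Ier3 and Pim1), 10 were in the table, all but Cebpd and Myc, and 4 held the motif, namely Socs3, Cish, Bcl6 and Icam1. TATAAA was in a promoter of 2 of the 12 AP-1 genes, Junb and Fos, against 15.7% of all genes. CCAAT was in 3 of 12, Jun, Junb and Atf3, against 41.1%. Both motifs were chosen because Junb holds them, so Junb was bound to be in both counts, and no conclusion is drawn from them. The letters missing at Junb are shown in capitals in 4 promoters that hold them, with 10 bases on either side, from the gene's own strand of GRCm38.p6.
Batf3: gccacgtgacTTCCACGAAgagcgggggc
Maff: gcgtgagtaaTTCCGGGAAgctcgcctta
Socs3: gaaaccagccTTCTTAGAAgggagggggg
Icam1: ggcgcgaggtTTCCCGGAAagtggccccg
Batf3 and Maff encode partners of AP-1 proteins, Socs3 the feedback inhibitor of cytokine receptors that signal through STAT3, and Icam1 an adhesion molecule. Some genes have several promoters in the table, and the matches are letters in these windows, not measured sites.

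Without oncostatin M, site 5 was the only site of the interval in a list. This was 1 of 8 sites, against 0.206% of all sites of the series in either 0 min list. Site 5 was in the STAT3β 0 min list, in which 0.150% of all sites of the series stood, and not in the STAT3α 0 min list, in which 0.131% stood. Both lists were short, with 9 peaks for STAT3α and 12 for STAT3β. Of these, 2 and 4 have rounded positions and are left out of the shares above, which are therefore too low. No peak of rounded position was on chromosome 8, so site 5 cannot have been hidden among the 6 positions of the 0 min lists that are known only to the nearest Mb.

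**Figure D1:**
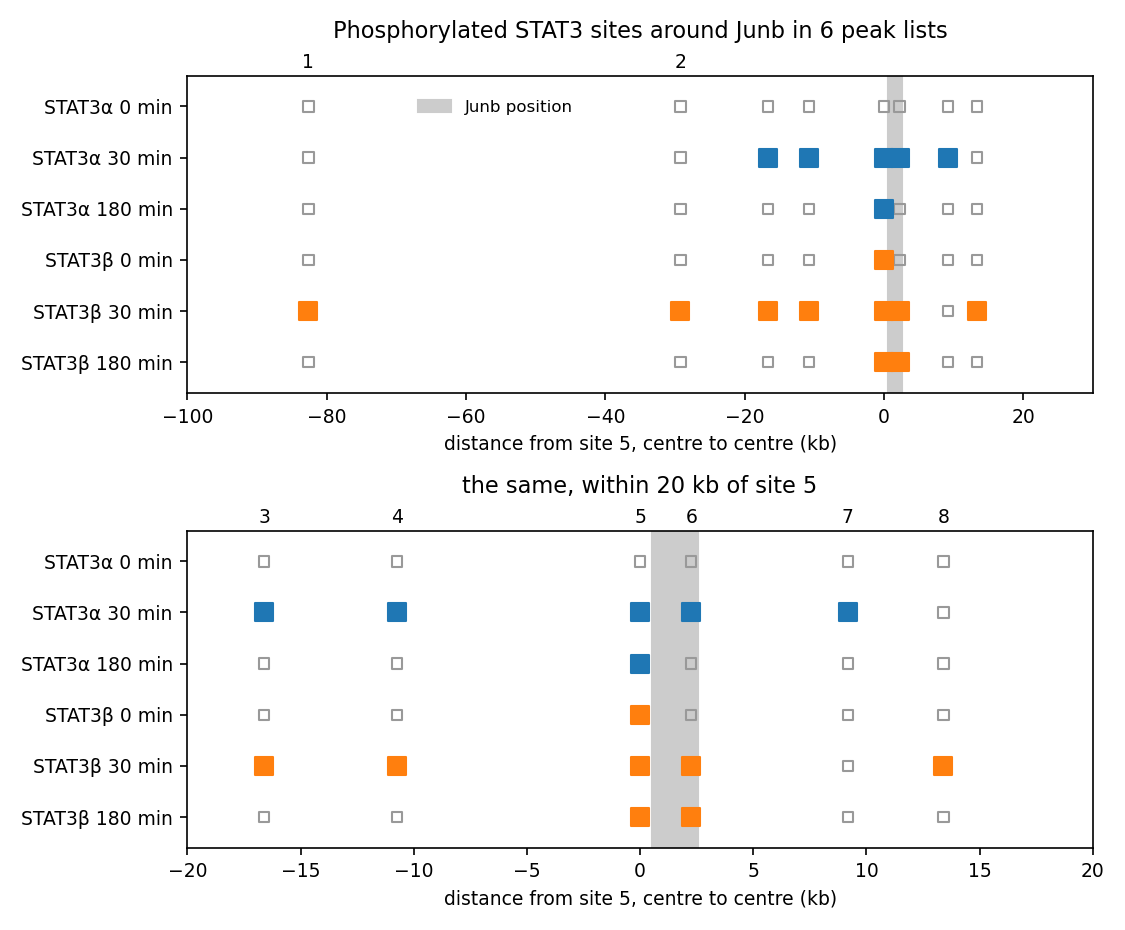
Sites around Junb by list. The horizontal axis gives the distance from site 5 in kb, centre to centre, for the whole interval (top) and within 20 kb of site 5 (bottom), rows are the 6 lists, filled squares are listed sites, small open squares are sites that a list does not hold, numbers are site numbers, and grey marks the position of Junb. Site 5 is filled in 5 of 6 rows, and the 180 min rows are filled at site 5 for STAT3α and at sites 5 and 6 for STAT3β.

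After 30 min of oncostatin M, the STAT3α list held 5 of the 8 sites and the STAT3β list 7. Which list held more depended on the window, with 5 sites in each within 25 kb of Junb and, within 10 kb, 3 for STAT3α against 2 for STAT3β. Over the whole series, 69.7% of sites were listed for STAT3α at this time and 72.8% for STAT3β. Sites 3, 4, 5 and 6 were in both lists, which made 4 of 8 sites, against 42.7% of all 30 min sites. Site 7 was in the STAT3α list alone, as were 27.1% of all 30 min sites. Sites 1, 2 and 8 were in the STAT3β list alone, as were 30.2%.

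The shared sites followed each other with no single-list site between them. Sites 3 to 6 formed a block of 19.3 kb that ends within the position of Junb, and every single-list site lay outside this block. On the lower-coordinate side, sites 1 and 2 were 82.6 and 29.2 kb from site 5. On the other side, the STAT3α site 7 and the STAT3β site 8 were 9.18 and 13.4 kb from site 5, and 4.23 kb from each other. At 30 min the lists thus held the same sites from site 3 to site 6 and differed at sites 1, 2, 7 and 8. Nearness to the gene did not separate the 2 kinds, since site 7 lay closer to the Junb position than the shared sites 3 and 4.

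After 180 min, the interval was reduced to the sites next to the gene. Site 5 was in both lists and site 6 in the STAT3β list alone, so 2 of 8 sites were still listed, against 2.49% of all sites of the series in either list. By spliceform, 1 of 8 sites was listed for STAT3α and 2 of 8 for STAT3β, against 0.749% and 2.25% of all sites. For STAT3α this was 1 of 5 sites listed at 30 min, against 0.940% of all STAT3α 30 min sites. For STAT3β it was 2 of 7 sites, against 3.03% of all STAT3β 30 min sites. Among sites of both spliceforms at 30 min, the counts were 1 of 4 for STAT3α and 2 of 4 for STAT3β, against 1.54% and 4.92% in the series. Site 5 was the 1 of these 4 that stood in both 180 min lists, as did 1.19% of such sites in the series. Sites 3 and 4, also shared at 30 min and within 16.6 kb of site 5, were in neither 180 min list. No site appeared at 180 min that had not been listed at 30 min for the same spliceform. Most late sites of the series were likewise not new, so this does not set the interval apart. The STAT3α 30 min list already held 35 of the 40 STAT3α 180 min sites, and the STAT3β 30 min list 118 of the 120 for STAT3β.

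On chromosome 8, the 180 min lists held 2 STAT3α sites and 6 STAT3β sites in all, so the interval contributed 1 of the 2 and 2 of the 6. In the STAT3β 180 min list of 120 sites, sites 5 and 6 were the closest neighbours. No other site of that list had a second one within their distance of 2.26 kb, only 4 of 120 sites, sites 5 and 6 included, had one within 10 kb, and the median distance to the nearest site of the list was 3930 kb.

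Counted over times and spliceforms, site 5 was in 5 lists, site 6 in 3, sites 3 and 4 in 2 each, and sites 1, 2, 7 and 8 in 1 each. In the series, 57.2% of sites were in 1 list, 40.5% in 2 and 2.32% in 3 or more. Only 5 sites in the series, site 5 included, were in 5 or more lists. The 6 rounded 0 min positions could not be matched to sites, so sites from 100 Mb upwards may stand in 1 list more than counted. The combination of lists at site 5, all but STAT3α at 0 min, occurred at 2 other sites, 6824175 to 6824574 and 38400117 to 38400516 on chromosome 15. That of site 6, both spliceforms at 30 min and STAT3β at 180 min, occurred at 84 other sites, with 4 sites on chromosome 8 in all.

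**Figure D2:**
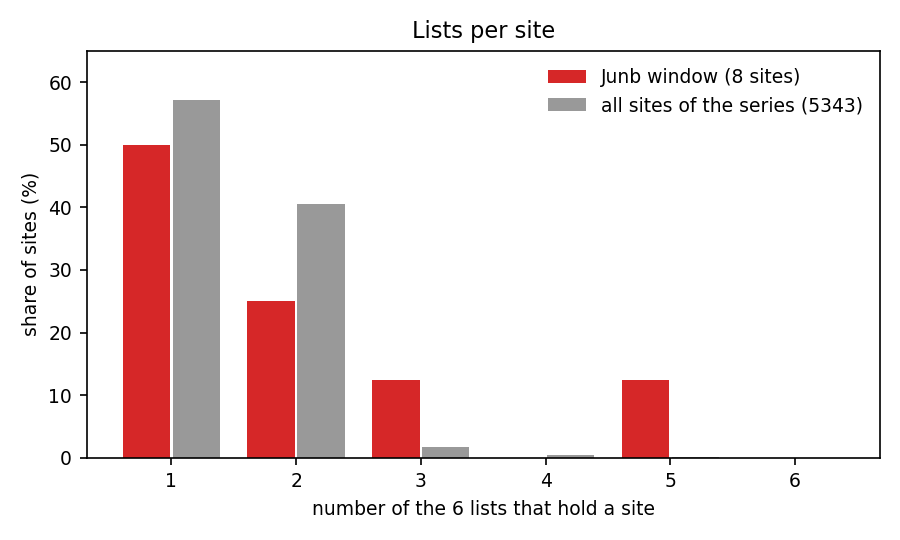
Number of lists that hold a site. The horizontal axis gives the number of lists from 1 to 6, and bars give the share of the 8 sites of the Junb interval (red) and of all 5343 sites of the series (grey) in percent. Each site in the Junb interval is 12.5% of its bars, so the red bars at 3 and 5 lists are 1 site each.

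The sites of the interval lay closer together than most sites of the series. The distance from each to the nearest other 30 min site ranged from 2.26 to 53.4 kb with a median of 5.04 kb, against a median of 46.2 kb over all 5338 sites. Of all 30 min sites, 8.47% had a neighbour as close as sites 5 and 6 were to each other. Site 5 had 6 other 30 min sites within 65 kb, against a median of 1 for all 30 min sites and a highest value of 11, and 2.12% of sites had at least 6. Within 10 kb it had 2 others, sites 6 and 7, and 4.18% of sites had at least as many, while 77.0% had none. When the chromosomes were divided into fixed tiles of 130 kb, 7 of 19536 tiles held 8 or more 30 min sites and 82.1% held none. The interval was placed to hold its sites and fixed tiles were not, so the tile count is only a scale. It held 8 sites, and no fixed tile of chromosome 8 had more than 6. An edge of the fixed tiles fell between sites 4 and 5 and so split the sites of the interval. With tiles shifted by 65 kb, 4 tiles held 8 or more sites and the highest count on chromosome 8 was 7. Sites 2 to 8 fell in 1 of the shifted tiles, which itself reached this highest count.

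**Figure D3:**
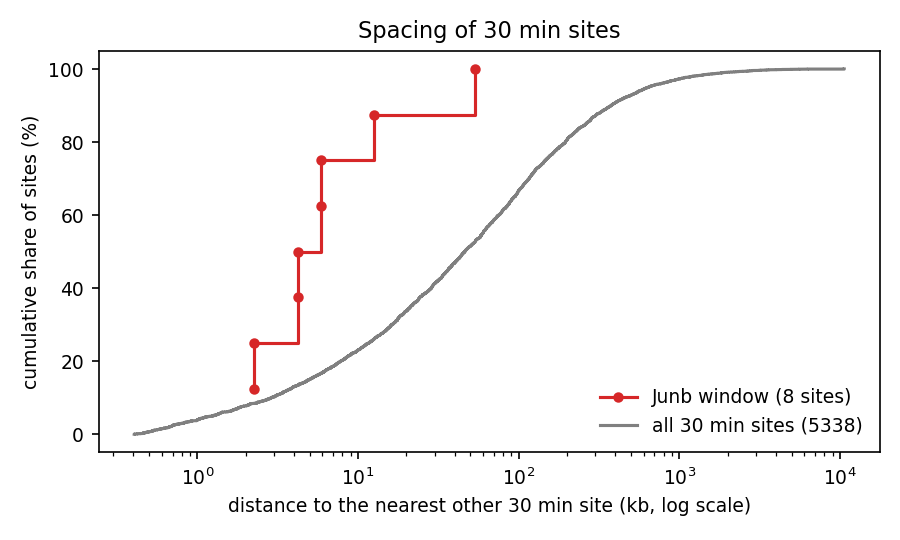
Distance to the nearest other 30 min site. The horizontal axis is the distance in kb on a log scale and the vertical axis the cumulative share of sites in percent, for the 8 sites of the Junb interval (red) and all 5338 sites listed at 30 min (grey). No site of the interval is closer than 2.26 kb to another, where the grey curve has reached 8.47%, and above that distance the red curve lies to the left, with medians of 5.04 and 46.2 kb.

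Site 5 was set beside the 10 other sites of exact position in the 0 min lists. They had 0 to 3 other 30 min sites within 65 kb, with a median of 0, against 6 at Junb. None of the 10 had another 30 min site within 10 kb, against 2 at Junb, and none had a second 180 min site within 65 kb, against 1, site 6. The pair with the same combination of lists as site 5, both on chromosome 15, had 1 and 3 other 30 min sites within 65 kb, the nearest at 16.7 and 12.1 kb. The site on chromosome 19 that was in all 6 lists had 2, the nearest at 16.2 kb. Among the 11 sites of exact position listed without cytokine, the one at Junb was thus the only one with a 30 min neighbour within 10 kb. For the 6 peaks of rounded position in the 0 min lists, neighbours could not be counted, so whether any of them shares this trait is unknown. The STAT3α ones were near 105 Mb of chromosome 14 and 158 Mb of chromosome 2. The STAT3β ones were near 101 and 118 Mb of chromosome 11 and 133 and 149 Mb of chromosome 4. On chromosome 11 of GRCm38.p6, the promoter windows of Stat3 and Socs3 begin at 100939491 and 117969317. Whether the 2 rounded peaks there lie at these genes was not determined. The locus had been chosen for its sites, and this difference was not tested.

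**Figure D4:**
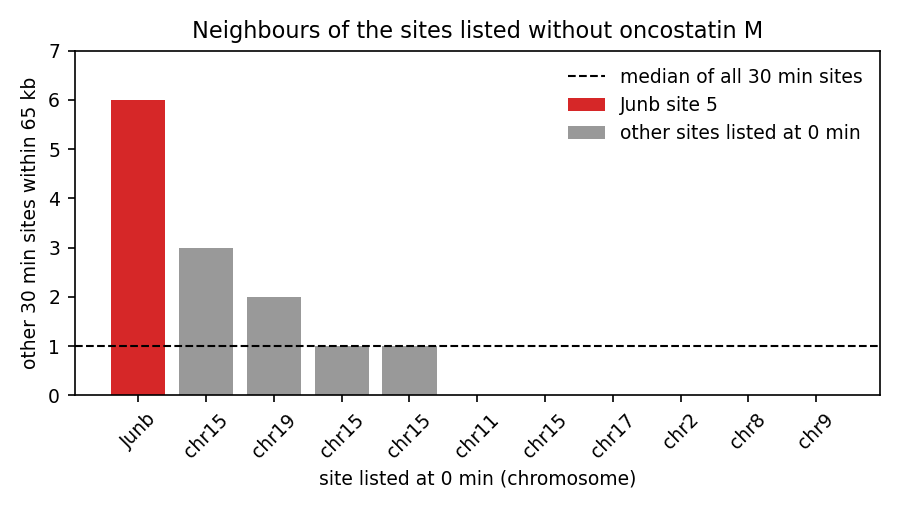
Neighbours of the 11 sites listed without oncostatin M at an exact position. The vertical axis counts other 30 min sites within 65 kb of each site, bars are site 5 at Junb (red) and the 10 other sites by chromosome (grey), and the dashed line is the median of 1 over all 30 min sites. The bar at Junb reaches 6 and the others 0 to 3.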

How the data were processed

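Phosphorylated STAT3 was mapped by ChIP-seq in 6 samples, and each deposited list holds peak positions and names without scores or reads. Per the labels, duplicates were prepared, reads were merged and 1 list was made per sample. Tools named in the submitters' processing notes are MACS2 2.1.1.20160309, HOMER 4.9, STAR 2.5.0a, Trim Galore 0.4.2 and bedtools, with build mm9. What each did, the threshold for peaks and how input was used are not stated there. The 0 min lists round positions from 100 Mb upwards to 3 digits, and these 6 peaks were left out.

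Starts were counted from 1. Peaks that overlapped by 1 bp or more were taken as 1 site, and distances run between centres. Neighbours were counted within 65 kb and 10 kb. Each group has 1 list, so no test was run. The genes and sites named are Junb, all sites of the interval, its RefSeq neighbours, sites with the lists of site 5, and, chosen after their values were seen, other 0 min sites and genes with motif matches. Members and gene lists were chosen with earlier results of these data known. The gene table and promoters (RefSeq, GRCm38.p6) gave names and sequences only. Planned motif searches in peaks and counts of sites near AP-1 genes need mm9 references and were not run. The overlap, tile and motif functions were checked on simulated data. Python 3.11.15, numpy 2.4.6, scipy 1.17.1 and matplotlib 3.10.9 were used.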

Additional observations from a re-analysis of the deposited data

How the results depend on the processing

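Of 29 alternative values for 12 counts, 25 stayed within 1.5 times the reported count. Most of the 29 could not have changed, so this share does not measure how stable the counts are. The 7 alternatives to the overlap definition gave the same counts, as they must where matching peaks have identical coordinates. Within 25 kb of Junb there were 6 sites, and in a window of 260 kb there were 8. The wider window could add none, since the closest sites outside the interval were 153 and 375 kb from its edges. Within 10 kb of Junb, the count went to 3 distinct sites, 3 in the STAT3α and 2 in the STAT3β 30 min list, against 8, 5 and 7 in the whole interval. The 0 and 180 min counts did not change with the window, since the only sites listed then, 5 and 6, were in every window. With tiles shifted by 65 kb, 4 tiles held 8 or more sites, against 7 in unshifted tiles. The highest count on chromosome 8 was 7, reached by the tile with sites 2 to 8, against 6 in unshifted tiles, which split the interval. No stricter peak threshold could be tried, since the lists hold no score. No paired analysis was possible because each group has 1 list and no test was run. With no depth listed, sites absent from a list cannot be told from sites below its threshold.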
